A study of Homo sapiens with 2 samples.

Results

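Of the 17847 SOX9 peaks called in HT-29 cells, 123 had their summit inside protein-coding sequence and away from gene starts. A peak was counted when its summit lay in the coding part of an exon of the Ensembl-canonical transcript of a protein-coding gene (GENCODE release 44 on hg19) and farther than 1 kb from every annotated transcription start site (TSS). These peaks lay in 120 genes and on all 22 autosomes, with none on the sex chromosomes. A further 377 summits fell on coding sequence within 1 kb of a TSS and were not included. The 7 coding summits at 0.9 to 1 kb from a TSS held 21 to 122 tags (median 35), and the 7 included peaks at up to 1.1 kb held 30 to 117 (median 33). HT-29 is an established human colorectal adenocarcinoma line that expresses SOX9. The experiment consisted of 1 library from chromatin immunoprecipitated with an antibody against SOX9 and 1 input library of sonicated chromatin, both from cells for which no treatment is given. MACS, the peak caller, counted 12319746 unique tags in the SOX9 library and 12320062 in the input. With no replicate of either library, no value below has a replicate error and no test between conditions was possible. The intervals given are 95% intervals that cover counting error only.

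SOX9 is a transcription factor with a high-mobility group box, which binds the minor groove at A- and T-rich sites built around CAAAG or CAATG and bends the DNA. In the intestine it is known from stem and progenitor cells and from Paneth cells. Coding exons are on average richer in G and C than introns, and some hold dense clusters of CpG dinucleotides, which elsewhere in the genome mostly mark promoters. CpG clusters inside genes can lie far from any annotated start.

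A few summit sequences, picked for a consensus, for tags or for CpG count, are shown first. Of the 123 summits, 4 had a full SOX9 consensus within 25 bp, written as CAAAG or CAATG preceded by a pair of bases that are each A or T, on either strand. The stretches below run 5′ to 3′ on the strand of the gene, from hg19, with the consensus in capitals. All of their bases are coding.
GHRHR chr7:31014588-31014648 (+): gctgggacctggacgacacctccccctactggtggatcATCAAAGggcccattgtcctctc
VPS13D chr1:12446315-12446375 (+): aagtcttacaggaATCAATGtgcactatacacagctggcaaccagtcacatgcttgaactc
MAGI3 chr1:114201826-114201886 (+): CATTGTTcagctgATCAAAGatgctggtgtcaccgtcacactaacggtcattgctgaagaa
MAP3K5 chr6:136932447-136932507 (-): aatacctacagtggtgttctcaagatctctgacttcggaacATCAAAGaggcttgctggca
The GHRHR, MAGI3 and MAP3K5 stretches held the copy ATCAAAG, which the TCF/LEF pattern (TCAAAG preceded by A or T) also matches, so both factors' letters lie on the same bases. MAGI3 had a second copy, in the opposite orientation. GHRHR encodes the receptor of growth hormone-releasing hormone, VPS13D a lipid transfer protein, MAGI3 a membrane scaffold and MAP3K5 the stress-activated kinase ASK1.

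SRCIN1 and TBCD were among the peaks with the most tags, and neither had the consensus within 100 bp of its summit. Their summits are shown with CpG dinucleotides in capitals, as the property in which most coding exon peaks stood apart. TBCD was not among these by the CpG measure given below.
SRCIN1 chr17:36714424-36714524 (-): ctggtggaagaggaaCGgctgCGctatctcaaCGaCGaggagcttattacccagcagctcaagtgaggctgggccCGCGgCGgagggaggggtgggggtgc
TBCD chr17:80847516-80847616 (+): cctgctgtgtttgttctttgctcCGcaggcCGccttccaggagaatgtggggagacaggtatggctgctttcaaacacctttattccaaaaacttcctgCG
SRCIN1 had 7 CpGs in the 101 bases and TBCD 3, and the coding part covered 62 and 30 of the bases, respectively. The most CpG-dense summits, a choice made after the values were seen, were those of CTF1 and ZNF771.
CTF1 chr16:30913547-30913647 (+): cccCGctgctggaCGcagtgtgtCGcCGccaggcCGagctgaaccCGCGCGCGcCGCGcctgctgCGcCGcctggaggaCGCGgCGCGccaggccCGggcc
ZNF771 chr16:30429347-30429447 (+): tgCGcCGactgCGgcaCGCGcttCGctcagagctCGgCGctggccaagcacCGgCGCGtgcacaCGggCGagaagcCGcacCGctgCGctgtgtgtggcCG
CTF1, which encodes the cytokine cardiotrophin-1, had 18 CpGs in 101 bases, and ZNF771, a zinc finger gene, had 17.

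The coding exon peaks were of modest strength. They held 12 to 254 tags, with a median of 33 (95% interval of the median 30 to 37) and quartiles of 25 and 50.5. Peaks in introns farther than 1 kb from a TSS (n = 3133) had a median of 37 tags, those in untranslated parts of exons (n = 132) 36, and those within 1 kb of a TSS (n = 9631) 54. The coding exon peaks were thus below the promoter peaks in tags, while their median fold enrichment over the local input was 9.74, against 10.1 at promoters and 10.7 in introns. Their empirical FDR, as the authors' table gives it, was 0 for 88 of them and at most 0.06% for the rest.

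In the signal maps, in which each tag is lengthened to 150 bp and counted in every 32-nt bin it meets, the highest SOX9 signal in these intervals ran from 8 to 51, with a median of 16, and the highest input signal from 1 to 16, with a median of 4. The SOX9 maximum was above the input maximum in all 123 intervals, which were called for holding more SOX9 tags than the local input predicts. It was at least 3 times the input maximum in 92. In the plot of both libraries the peaks with high SOX9 signal tended to be those with high input.

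**Figure D1:**
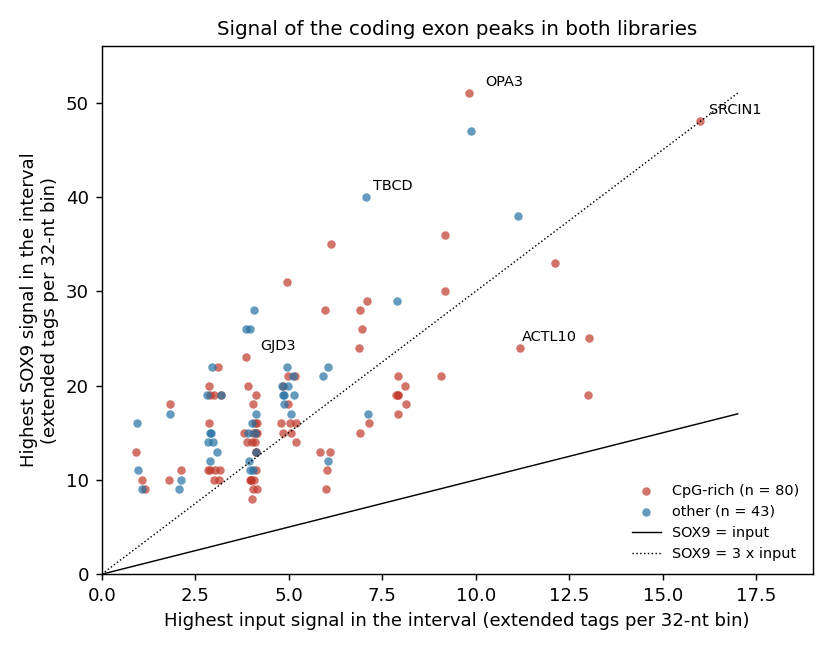
Highest SOX9 signal against the highest input signal within each of the 123 coding exon peaks, in extended tags per 32-nt bin, with small horizontal jitter. Red points are the 80 CpG-rich peaks and blue points the other 43. All points lie above the line of equality, and 92 lie on or above the dotted line at 3 times the input.

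The most tags were counted at SRCIN1, with 254 (exact Poisson interval 224 to 287). This gene encodes an adaptor protein that inhibits the kinase SRC, and the peak at chr17:36713384-36716228 had its summit in coding segment 11 of 19. The SOX9 signal there reached 48 and the input signal 16, the highest input of all 123, and the fold enrichment was 5.87. ACTL10, an actin-like gene with 1 coding segment, followed with 169 tags (interval 144.5 to 196.5), SOX9 and input maxima of 24 and 11, and a fold enrichment of 5.19. TBCD, which encodes a tubulin-folding cofactor, had 117 tags and was enriched 14.7-fold, with maxima of 40 and 7. Its summit fell on a coding segment of 30 bp, which made up 2.17% of the interval. SLC45A3, a transporter gene known from prostate, had 103 tags at 8.07-fold. The next places were held by GJD3 and DISP2 with 93 tags each, TP53INP2 with 89, CIC with 88, ALPK3 with 86, CELSR2 with 83, MATN4 and CYFIP2 with 82, C17orf50 with 81, CNFN with 77 and TP53TG5 with 74. Among them GJD3 encodes a gap junction connexin, CIC the capicua repressor, CELSR2 an adhesion receptor of planar cell polarity and MATN4 a matrix protein.

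Peaks with many tags were often in windows with much input. The mean input signal of the surrounding 1 Mb window, divided by the median of all autosomal windows, was above 1.5 for 26 of the 122 coding exon peaks with such a value, and for 8 of the 15 with the most tags. SRCIN1 had the highest ratio, 2.09, and ACTL10 had 1.87. The median over the coding exon peaks was 1.2, and the upper quartile of all autosomal windows was 1.19. Copy number and mappability both enter this ratio, and their part in the tag counts was not tested.

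Ranked by fold enrichment, a largely different set came first. GJD3 led with 26.2-fold, SOX9 and input maxima of 23 and 4, and no extended input tag in the bin of its summit. UBR3, a ubiquitin ligase gene, followed with 21.4-fold from 26 tags, CCDC92B with 20.9-fold from 32 tags, LRP4, a receptor of the LDL receptor family at the neuromuscular junction, with 20.6-fold from 29 tags, and UNC13A, a gene of synaptic vesicle priming, with 20.4-fold from 24 tags. PLXND1, a semaphorin receptor gene, had 19.8-fold, the stronger of 2 APC2 peaks 19.1-fold, PRDM12 18.9-fold, C17orf50 18.6-fold and NEDD4L, a ubiquitin ligase gene, 17.5-fold. Only GJD3 and C17orf50 were among both the 15 peaks with the most tags and the 10 with the highest fold enrichment. Whether this overlap differs from that of unrelated rankings was not tested. The input maxima of the 10 were 1 to 6, so their fold enrichments rest on few input tags.

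No gene had 3 or more coding exon peaks. APC2, IRS2 and VGF had 2 each, a trio named after the values were seen. Both APC2 peaks, with 21 and 13 tags, lay in the last coding segment of 5056 bp. Both IRS2 peaks, with 45 and 32 tags, lay in a first coding segment of 4012 bp, and those of VGF, with 48 and 31, in its only coding segment. APC2 encodes a relative of the Wnt pathway scaffold APC, IRS2 an adaptor of the insulin receptor and VGF a secreted neuropeptide precursor.

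Relative to the material sequenced, coding exons away from TSSs held a smaller share of all peaks than of the input signal, as did every class outside promoters. They made up 0.866% of the input signal and 0.689% of the peaks, a ratio of 0.796 (Wilson interval 0.667 to 0.949). Introns had a ratio of 0.487 (0.471 to 0.502), untranslated exon parts 0.597 (0.504 to 0.707) and regions within 1 kb of a TSS 5.55 (5.47 to 5.62). Per base, coding exons held 5.73 summits per Mb and introns 3.22. Regions within 1 kb of a TSS held 53.96% of all peaks and 9.73% of the input signal, which lowers the ratios of the other classes. A ratio below 1 is thus set against a total made up mostly of promoter peaks. The ratio among peaks outside promoters alone was not computed. Sequence outside canonical protein-coding transcripts had a ratio of 0.519 (0.507 to 0.532). Coding exons thus had the highest ratio of the classes below 1. Their interval lay below 1, above that of introns and across that of untranslated exon parts.

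Base composition set these peaks apart from other coding segments. Within 100 bp of the summit, the median GC content was 68.2% (interval of the median 65.2 to 70.2%), against 46.3% in intron peaks and 67.2% in promoter peaks. The median at the midpoints of 120096 coding segments without a peak was 45.8%. GC content was above 65% at 77 of the 123 summits (62.6%) and at 5.75% of the segments without a peak. A window was called CpG-rich when its GC content was at least 50% and its observed over expected CpG at least 0.6, a split chosen with the values known. By this measure 80 of the coding exon peaks were CpG-rich, or 65.04% (interval 56.3 to 72.9%), compared with 5.82% of the segments without a peak, 5.39% of intron peaks and 79.2% of promoter peaks. Counted per base, 8.50% of the coding exons was CpG-rich. At the third codon position, the median GC content of the segments with a peak was 83.5%, against 51.2% of the segments without.

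**Figure D2:**
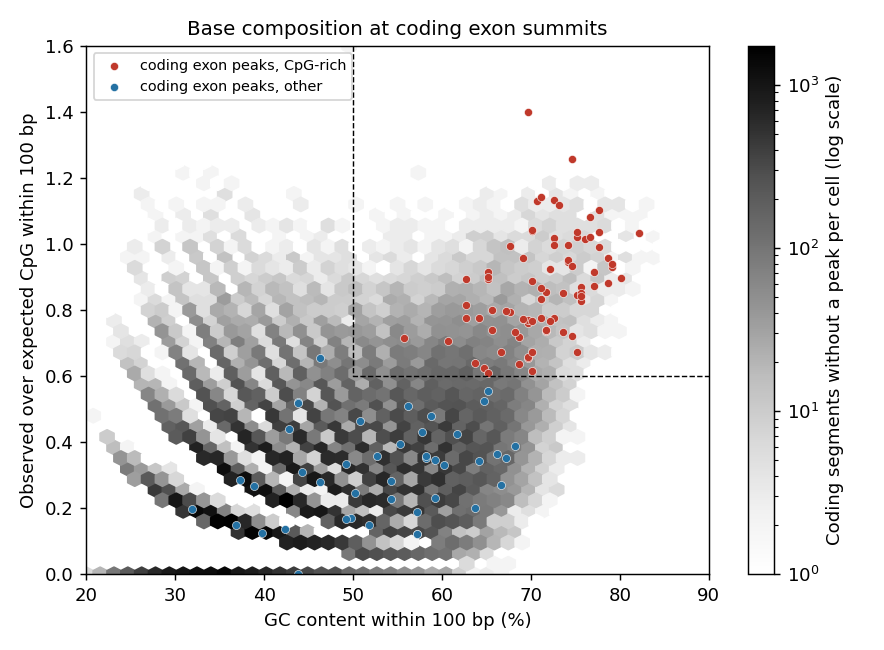
GC content against observed over expected CpG in the 201 bases around each of the 123 coding exon summits (coloured points), over a density of the same measures at the midpoints of 120096 coding segments without a peak (grey, log scale). The dashed lines bound the CpG-rich class, which holds 80 of the 123 summits and 5.82% of the segments without a peak.

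The number of summits per base was higher in classes of higher GC content, in coding exons and in introns. In coding exons it was 1.23 per Mb (exact Poisson interval 0.612 to 2.19) where GC content was at most 45%, 2.03 (1.01 to 3.63) from there to 55%, 4.71 (3.02 to 7.01) up to 65% and 39.4 (31.1 to 49.2) above 65%. In introns the same classes had 2.15, 3.77, 9.46 and 32.2 summits per Mb. At up to 65% GC the coding exons therefore had fewer summits per Mb than introns of the same class, with intervals that overlapped up to 55% and did not from 55 to 65% (8.70 to 10.3 for introns). Above 65% the intervals of both overlapped (28.0 to 36.8 for introns). Bases above 65% GC made up 9.12% of the coding exons and 0.688% of the introns. Split by CpG instead, CpG-rich coding sequence had 43.9 summits per Mb (34.8 to 54.6) and CpG-rich introns 14.4 (12.3 to 16.7), whereas the remaining sequence had 2.19 (1.59 to 2.95) and 3.09 (2.98 to 3.20). The CpG-rich classes were not covered alike, with a mean input signal per bin of 0.766 in coding sequence and 0.398 in introns. Their ratios of SOX9 to input signal were 1.385 and 1.377. The part of input coverage in the rates per Mb was not tested.

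The SOX9 library also had more signal over GC-rich coding sequence where no peak was called. At segment midpoints outside peaks the ratio of SOX9 to input signal was 0.897 (0.877 to 0.917) at up to 35% GC and 0.999 (0.971 to 1.03) at 60 to 65%. It was 1.43 (1.31 to 1.57) at 70 to 75% and 2.28 (1.91 to 2.73) above 75%. In introns outside peaks the ratio was 0.918 at up to 35% GC, 1.07 (1.06 to 1.09) at 60 to 65% and 2.34 (2.01 to 2.72) above 75%. It was thus also highest in the top class, and above that of coding segments at 60 to 65%, with intervals that did not overlap. The mean SOX9 signal at these midpoints was 0.753 in the lowest class and 1.32 in the highest, while the mean input signal was 0.839 and 0.578. In introns both signals were lower in the highest class, at 0.729 and 0.388 for SOX9 and 0.795 and 0.166 for the input. With 1 library of each kind, SOX9 occupancy and an effect of GC content on the library cannot be told apart, and the part of GC content in the peak calls was not tested.

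**Figure D3:**
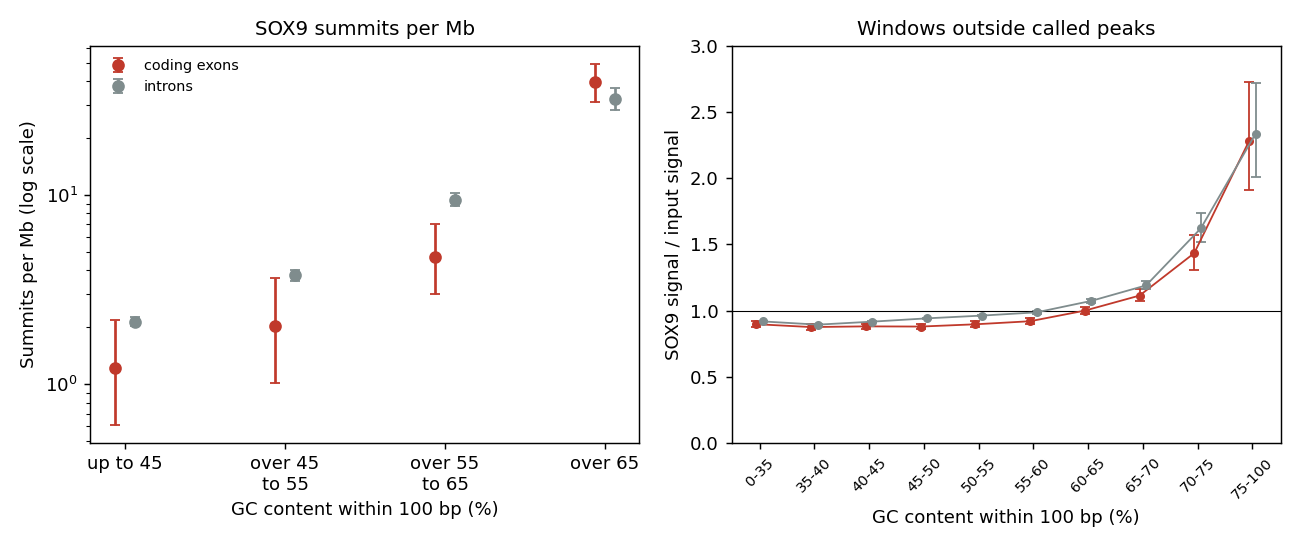
Left, SOX9 summits per Mb (log scale) by GC content within 100 bp, in coding exons (red) and introns (grey) farther than 1 kb from a TSS, with exact Poisson 95% intervals. Right, ratio of SOX9 to input signal by GC content at coding segment midpoints (red) and intron positions (grey) outside called peaks, with exact 95% intervals. Both measures are highest in the most GC-rich class, at 39.4 summits per Mb of coding exon and a ratio of 2.28.

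The SOX9 consensus was rare at these summits. It lay within 100 bp of 9 of the 123, or 7.32% (3.90 to 13.3%), whereas intron peaks had it in 35.4% (33.7 to 37.1%), promoter peaks in 8.83% and coding segments without a peak in 24.9%. In windows 1 kb to either side of the coding exon summits it was found in 16.3% (12.2 to 21.4%). The 5 core bases alone (CAAAG or CAATG) were present in 34.2% of the coding exon windows and 65.1% of the segments without a peak. The inverted pair of exact copies spaced 4 bp apart, in which SOX9 can bind as a dimer, was in 0 of the 123 windows, which allows a share of up to 2.44%, and in 0.511% of intron peaks.

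Within classes of like GC content, coding exon peaks and segments without a peak had similar shares. At up to 45% GC the consensus was in 4 of 11 peaks (36.4%, interval 15.2 to 64.6%) and in 34.9% of the segments. From 45 to 55% it was in 2 of 11 peaks and 23.7% of the segments, from 55 to 65% in 2 of 24 and 10.7%, and above 65% in 1 of 77 and 3.19%. In intron peaks the same 4 classes had 47.1%, 35.9%, 16.1% and 8.37%. With 11 to 77 peaks in a class, a difference from the segments in the full consensus was not detectable at this depth. The 5 core bases were in 11 of the 77 peaks above 65% GC (14.3%, interval 8.17 to 23.8%) and in 31.4% of the segments, and within this class the peaks had the higher median GC content, 71.6% against 67.2%.

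The 9 peaks with a consensus within 100 bp were those of GHRHR (37 tags), IL4I1 (37), NEDD4L (36), SUSD1 (33), BLZF1 (27), VPS13D (26), WWP2 (25), MAGI3 (23) and MAP3K5 (23). Their median was 27 tags, with 4 of the 9 at or above the median of 33 over all coding exon peaks, and their fold enrichments ran from 8.79 to 17.5. Except for IL4I1, an L-amino acid oxidase gene, none was CpG-rich. In 8 of the 9 the gene also had a SOX9 peak within 1 kb of a TSS, GHRHR being the exception, compared with 52 of all 123 coding exon peaks (42.3%) and 45.4% of all protein-coding genes. WWP2, like NEDD4L, encodes a ubiquitin ligase of the NEDD4 family, and its peak lay in coding segment 4 of 23. MAGI3 had its summit 40397 bp from the nearest TSS, and 4 of the 9 were beyond 10 kb.

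The other motifs did not share 1 pattern. The AP-1 site (TGANTCA) was in 8 of the 123 windows, of which 7 were among the 43 that were not CpG-rich (16.3%, interval 8.12 to 29.97%). Segments without a peak that were not CpG-rich had it in 5.34% (5.21 to 5.47%), and intron peaks in 25.2%. The 8 peaks with AP-1 shared none with the 9 that had the SOX9 consensus. With so few of each among 123, this does not show whether the sites avoid each other. The peaks with AP-1 included SLC45A3 and ALPK3, a kinase-like gene of heart muscle, with 103 and 86 tags. Another was STAG1, a cohesin subunit gene, with 51, named after its value was seen. CCAAT, the site of NF-Y, was in 8 windows (6.50%, interval 3.33 to 12.3%), against 29.96% of promoter peaks and 25.4% of segments without a peak. Among CpG-rich windows it was in 4 of 80 peaks (1.96 to 12.2%) and 11.3% of the segments, and among the others in 4 of 43 (3.68 to 21.6%) and 26.2%. By GC content it was in 4 of 11 peaks and 31.05% of the segments at up to 45%. From 45 to 55% it was in 0 of 11 and 27.0%. From 55 to 65% it was in 0 of 24, which allows up to 12.5%, and in 16.1% of the segments. Above 65% GC the shares were closer, at 5.19% (2.04 to 12.6%) and 7.62%.

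The GC box GGGCGG, to which SP and KLF factors bind, was in 45 windows (36.6%, interval 28.6 to 45.4%) and in 15.4% of the windows 1 kb away. Among CpG-rich windows it was in 46.2% of coding exon peaks (35.8 to 57.1%) and 24.5% of segments without a peak, and these peaks had a higher median GC content, 71.6% against 62.2%. Above 65% GC it was in 48.1% of the peaks (37.2 to 59.0%), in 33.7% of the segments and in 62.8% of intron peaks. The CTCF core AGNGGGC was in 26.8% of the windows and 10.1% of the segments, in 7 of 24 and 20.3% from 55 to 65% GC, and above 65% GC in 29.9% and 28.1%. Among CpG-rich windows it was in 28.75% of the peaks (19.99 to 39.5%) and 16.6% of the segments, and among the others in 23.3% (13.2 to 37.7%) and 9.71%. The E-box CACGTG was in 7 windows, all of them CpG-rich (8.75%, against 8.89% of CpG-rich segments). The ETS core CCGGAAG was in 4.07%, against 15.1% at promoters. The FOX site TGTTTAC was in none of the 123, which allows up to 2.44%, and in 8.84% of intron peaks. Segments without a peak had it in 2.48%, and those above 65% GC in 0.145%. TCF/LEF letters, which are nested in the SOX9 consensus, were in 3 windows (2.44%) and in 8.36% of the segments.

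**Figure D4:**
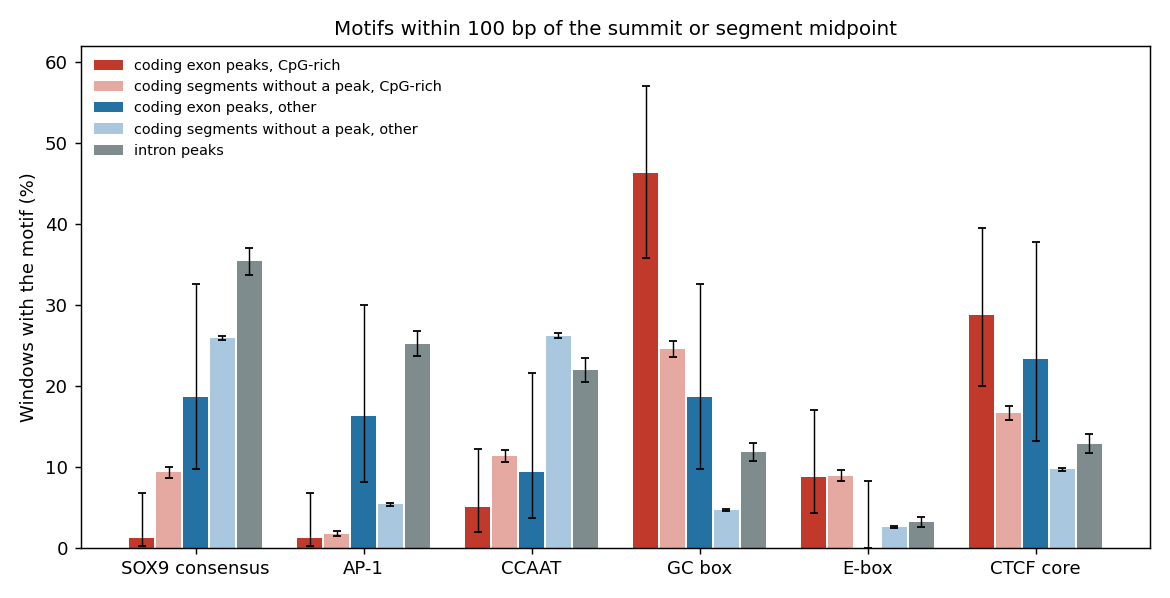
Share of windows with each motif within 100 bp of the summit or segment midpoint, with Wilson 95% intervals, for CpG-rich coding exon peaks (n = 80), other coding exon peaks (n = 43), coding segments without a peak of both kinds, and intron peaks (n = 3133). The SOX9 consensus is in 1.25% of the CpG-rich coding exon peaks, 18.6% of the other coding exon peaks and 35.4% of the intron peaks.

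The CpG-rich peaks and the other 43 also differed in their place within genes. CpG-rich peaks lay in longer coding segments, with a median of 443 bp against 166 bp, and 43 of the 80 were in the last coding segment (53.8%, interval 42.9 to 64.2%), compared with 4 of the 43 (9.30%, 3.68 to 21.6%). Of the CpG-rich segments without a peak, 22.8% were last segments. Shares of segments without a peak count each segment once, while longer segments offer more bases to a summit. The median length of CpG-rich segments without a peak was 187 bp. The median distance to the nearest TSS was 2116 bp for CpG-rich peaks and 5499 bp for the others. Within 3 kb of a TSS were 57.5% of the former (46.6 to 67.7%), 32.6% of the latter (20.5 to 47.5%) and 38.8% of the CpG-rich segments without a peak. Median tags were 36 and 29, and median fold enrichments 8.73 and 10.

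Around the summits both kinds had a narrow maximum, which stood higher over its surroundings in the other peaks. The mean SOX9 signal at the summit bin was 17.8 in CpG-rich and 18.4 in other peaks, and 21.6 in intron peaks. At 2 to 3 kb away it was 1.49, 1.09 and 1.52, with mean input of 1.02, 1.01 and 1.17, so that the summit bin was 11.9, 16.8 and 14.3 times the distant SOX9 signal. The input also had a small maximum at the summit, of 3.31 in CpG-rich and 2.51 in other peaks. The contrast between CpG-rich and other peaks lay mainly in the distant SOX9 signal. CpG-rich peaks were nearer to TSSs, and the part of this in the distant signal was not tested. These means describe positions that the peak caller chose for their signal.

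**Figure D5:**
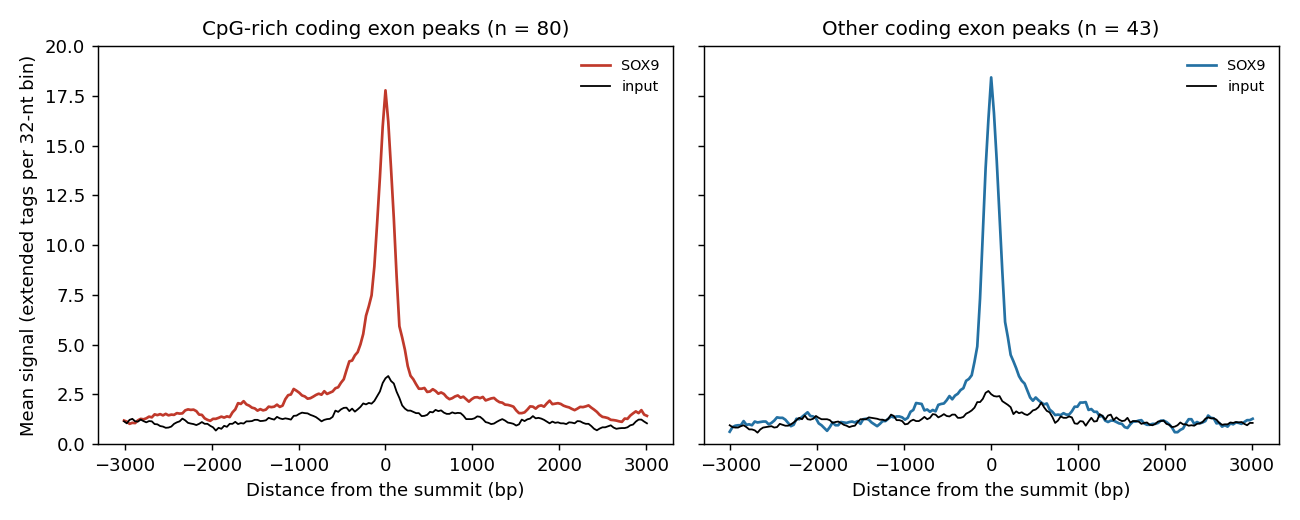
Mean SOX9 signal (coloured) and mean input signal (black), in extended tags per 32-nt bin, by distance from the summit for the 80 CpG-rich (left) and the 43 other (right) coding exon peaks. SOX9 reaches 17.8 and 18.4 at the summit bin, and the input 3.31 and 2.51.

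Taken over all 123, the summit was in the last coding segment in 47 (38.2%, interval 30.1 to 47.0%), against 24.6% of the coding bases that could have held one. The first coding segment had 18 (14.6%, against 9.28% of the bases), 11 of the peaks being in genes with 1 coding segment, and internal segments had 69 (56.1%, against 71.3%). Segments over 300 bp held 54 of the summits (43.9%, against 33.7% of the bases). The summits were spread from 6.36% to 99.6% of the coding sequence, with a median of 61.5%.

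The peaks were in general wider than the exons they sat on. The median interval was 723 bp and the median coding segment 255 bp, and the coding part covered a median of 46.6% of the interval and more than 50% in 54 peaks. The summit was within 50 bp of the edge of its coding segment in 51 peaks. Most intervals thus reached well beyond the coding sequence at their summit.

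The nearest TSS was 1007 to 45675 bp away, with a median of 3104 bp. It belonged to the same gene in 87 peaks and to another gene in 36, and at 12 peaks a long noncoding RNA was among those that start there. In 60 peaks it was within 3 kb and in 24 beyond 10 kb. Another SOX9 summit lay within 3 kb in 21 peaks, and the median distance to the next one was 14650 bp. In 27 peaks the interval, though not the summit, reached to within 1 kb of a TSS.

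The genes with a coding exon peak were not more often those with a promoter peak. The gene had a summit within 1 kb of one of its TSSs in 52 of the 123 peaks (42.3%, interval 33.9 to 51.1%), whereas 45.4% of all 19881 protein-coding genes had one, and such genes held 45.8% of the coding bases that could have carried a peak. Where both were present, the strongest promoter peak had more tags than the coding exon peak in 41 of 52, with a median of 60.5. CIC had the widest gap, with 452 tags at its promoter and 88 on the exon. SRCIN1 was the reverse, with 61 at its promoter and 254 on the exon. Coding exon peaks had a median of 35 tags in genes with a promoter peak and 30 in genes without.

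By chromosome, 16 of the peaks were on chromosome 19, or 13.0% (8.17 to 20.1%), which held 6.27% of the eligible coding bases. Chromosome 17 had 12 (9.76%, against 4.76%), chromosome 20 had 7 (5.69%, against 2.53%) and chromosome 1 had 15 (12.2%, against 10.2%). The regional input ratio described above was 1.71 to 1.90 at the 7 peaks on chromosome 20. It ran from 0.598 to 1.99 on chromosome 19 and from 0.707 to 2.09 on chromosome 17. The part of regional input and GC content in these shares was not tested.

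Of all 19881 protein-coding genes, 120 or 0.604% had a coding exon peak, at 5.64 peaks per Mb of coding sequence (4.69 to 6.73), and gene families were read against this. Of 68 Wnt pathway genes, 2 had one, FZD5 and APC2, with 3 peaks in all (2.94% of the genes, interval 0.810 to 10.1%), at 32.8 peaks per Mb (6.76 to 95.8). This rate rests on 3 peaks, of which 2 share an exon, and its interval counts them as independent. The median GC content of the list was 57.2%, against 45.8% over all protein-coding genes, and its part in the rate was not tested. FZD5 encodes a Frizzled receptor for Wnt ligands, and its peak of 54 tags lay in its only coding segment, with SOX9 and input maxima of 15 and 7. Of 51 giant cytoskeletal and scaffold genes, 3 had one (5.88%, 2.02 to 15.9%), at 6.77 peaks per Mb (1.40 to 19.8), among them the stereocilia myosin gene MYO7A with 69 tags and the agrin gene AGRN with 30. These genes hold much coding sequence, and their rate per Mb was close to that of all genes.

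Of 566 C2H2 zinc finger genes, 4 had a coding exon peak (0.707%, 0.275 to 1.80%), at 4.61 per Mb, led by ZNF771 with 41 tags, ZNF385A with 29 and ZNF341 with 23. The share was close to that of all genes. Of 70 keratin and mucin genes, 1 had one, the gel-forming mucin gene MUC5B, with 17 tags. Of 50 receptor tyrosine kinase genes, 1 had one, the ephrin receptor gene EPHB1, with 25 tags and a summit 26219 bp from the nearest TSS.

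The remaining lists had none, in counts that a share like that of all genes would also allow. These were 404 olfactory receptor genes (0 allows up to 0.743%), 103 HOX, FOX and SOX genes (up to 2.91%), 86 ribosomal protein genes (3.49%), 64 chromatin regulators (4.69%), 56 collagen and laminin genes (5.36%), 51 clustered protocadherin genes (5.88%), 47 epithelial junction genes (6.38%) and 35 Notch pathway genes (8.57%). Ribosomal protein genes and chromatin regulators had promoter peaks in 81.4% and 87.5%, and the former hold only 0.0121 Mb of eligible coding sequence.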

How the data were processed

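SOX9 ChIP-seq was analysed from 1 ChIP and 1 input library of HT-29 cells. Reads of 50 nt were mapped by the authors with BWA on hg19. Multiply mapped and duplicate reads were discarded, the input was thinned to the 12320108 alignments of the ChIP, and MACS (p limit 1e-07, mfold 16) called the peaks. The deposited peak table gives the tag count of each peak, a score, which is 10 times the negative log10 of its p, the ratio of its tags to those that the local input predicts, and the FDR in percent. The deposited signal counts, for each 32-nt bin, the tags that cover it once lengthened to 150 bp, without further scaling. The deposited BED list had the same 17847 intervals and scores and was not used. No peak or signal bin lay beyond the end of its chromosome in the GRCh37 reference.

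Summits, GC content, CpG and motifs (both strands, 201 bases) were computed in Python (3.11.15) from tables read by pandas (2.3.3), with NumPy (2.4.6) for arrays, SciPy (1.17.1) for intervals and matplotlib (3.10.9) for plots. Introns were sampled every 320 bp. Eligible coding bases lay over 1 kb from every TSS. Coding segments without a peak were read at their midpoint. A share has a Wilson interval, a tag count or rate an exact Poisson interval, a ratio of signals an exact binomial interval and a median an order-statistic interval. Procedures were tested on simulated data. Of the 19881 canonical transcripts, 294 are annotated as targets of nonsense-mediated decay.

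The peaks, the gene lists and the tests were chosen with earlier results of these data known. Genes named are those of the 15 peaks with the most tags, of the 10 with the highest fold enrichment, those with a SOX9 consensus and up to 3 per list, and other names are marked. Alternatives were the interval midpoint, stricter score and fold limits, 3 kb from a TSS, TSSs of protein-coding genes, coding sequence of any transcript, at least 50% of the interval coding, windows of 25 and 250 bp and the 5 core bases. The labels and the methods name different culture media. Some values and 1 sequence that the naming rule would include are not reported here.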

Additional observations from a re-analysis of the deposited data

How the results depend on the processing

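The 8 summary values of the coding exon peaks were recomputed under each alternative, in 63 comparisons in all. In 45 of them the value stayed within its 95% interval, or a count within 1.5 times, and 18 moved further. The 123 peaks became 64 at a score of at least 100, 57 at a fold enrichment of at least 10, 63 at over 3 kb from a TSS and 58 with at least 50% of the interval coding, as fewer peaks pass by construction. The ratio of the coding share of peaks to that of input signal was 0.796. It was 0.607, 0.601 and 0.375 with the limits on score, TSS distance and coding part. It stayed below 1 in each alternative, with promoter peaks counted in the total. With the limit on the coding part, fewer peaks counted as coding while the total stayed the same, so that lower ratio follows by construction. Median tags, 33, were 40.5 with the score limit and 29 with the fold limit. With at least 50% of the interval coding, the median GC content was 70.7%, the share with the SOX9 consensus 3.45% and the share in the last coding segment 58.6%. The width of the window set the motif shares. The consensus was in 3.25% within 25 bp and 21.9% within 250 bp, and 34.2% had the 5 core bases. CCAAT was in 2.44% within 25 bp, 24.4% within 250 bp and 14.3% around interval midpoints. The cause of the other changes was not tested.

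No paired analysis was possible because each group has 1 library, and there was no replicate to leave out. A depth of 12320108 tags leaves peaks of 12 to 20 tags with wide counting intervals, and 13 of the 123 were at or below 20. What another ChIP of the same cells would give is not known from these data.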
